A study of Mus musculus with 9 samples.

Results

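The AP-1 transcription factor mRNAs were followed through RNA immunoprecipitation and sequencing (RIP-seq) of phosphorylated UPF1 (p-UPF1), the activated form of an RNA helicase required for nonsense-mediated mRNA decay (NMD). The members were chosen by gene symbol, as the mouse genes Fos, Fosb, Fosl1, Fosl2, Jun, Junb and Jund. These 7 genes are among 54325 gene symbols in the deposited data, and their 21 transcripts, of which 16 had a count, are among 140658. Of the 7 members, 6 reached the minimum of 10 counts needed for a test, and Fosl1 did not.

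All 9 libraries came from N2A cells, a mouse neuroblastoma line, that had been exposed for 2 h to 200 nM of the phosphatase inhibitor okadaic acid. The input group (n = 3) held RNA that was not immunoprecipitated, the rIgG IP group (n = 3) RNA recovered with control rabbit IgG, and the p-UPF1 IP group (n = 3) RNA recovered with antibody to p-UPF1. Since the controls had received okadaic acid too and no untreated cells are among these libraries, an effect of the drug on the level of any mRNA cannot be told apart from its level in these cells. RNA was cleaved with RNase I, short fragments were sequenced, and the authors estimated a count for each transcript.

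Total counts were 26023968, 25184464 and 29857955 in the input libraries, and 5312526, 6032142 and 6246110 in those of the p-UPF1 IP. The rIgG IP libraries held only 474491, 205177 and 79010 counts, so that few fragments of any member were seen there. Levels are given as CPM, counts scaled to a common library size with TMM factors, which hold a trimmed mean of gene ratios equal between libraries. A level of 3 counts corresponded to 0.125 to 0.141 CPM in input, 0.440 to 0.534 CPM in the p-UPF1 IP and 7.54 to 24.1 CPM in the rIgG IP. These floors, and all counting intervals, cover counting error only, and copies made by PCR are counted in them as if they were separate molecules. The labels number the libraries of a group without saying whether they came from separate cultures, so p-values measure the spread between libraries, which may be technical.

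AP-1 is a family of dimeric transcription factors in which proteins of the Jun family pair with each other or with proteins of the Fos family through a leucine zipper and bind DNA through an adjoining basic region. Jun and Fos are classical immediate early genes, whose transcription is switched on within minutes by growth factors, neuronal activity and stress through MAP kinases, and whose mRNAs are short-lived, in part because of AU-rich elements in their 3′ UTRs. Phosphatase inhibitors such as okadaic acid are known to raise AP-1 activity in many cell types.

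The labelled cell type was checked with marker genes. Of 17 neuroblastoma and neuronal markers, 16 had a count in input, with summed levels of 458, 461 and 440 CPM in the 3 input libraries, led by Prph, a neuronal intermediate filament gene, at 136 ± 5.44 CPM (SD, n = 3), while Nefl was at 0. Their summed levels were 412, 365 and 281 CPM in the rIgG IP and 379, 386 and 389 CPM in the p-UPF1 IP. The 7 glial, 7 immune and endothelial and 6 fibroblast markers together had far lower summed levels in input, at most 3.90, 1.95 and 2.67 CPM in any library, led by Cnp, Pecam1 and Pdgfra. Aqp4 was at 0 among the glial markers, as were Col1a2 and Col3a1 among the fibroblast markers. The glial sum was higher than in input in both immunoprecipitations, at 7.54, 14.2 and 8.03 CPM in the rIgG IP, from few counts, and at 11.6, 10.8 and 7.70 CPM in the p-UPF1 IP. It was led there by Mbp at 9.04 ± 2.09 CPM, with Cnp lower than in input (1.00 against 1.76 CPM) and Gfap, Aqp4, Mog, Sox10 and S100b at 0. Between the p-UPF1 IP and input, Stmn2 (log2 fold change -2.37), Chgb (-2.02), Gata2 (1.83) and Elavl4 (-1.54) differed most among the neuronal markers, and Mbp (2.83) among the glial ones. The fibroblast marker Dcn was lower too, but with 1, 0 and 0 counts in the p-UPF1 IP against 21, 18 and 24 in input no fold is given. How much RNA of other cells entered the AP-1 values was not tested.

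Taken as a sum, the AP-1 mRNAs stood at 118, 116 and 117 CPM in the input libraries, at 83.0, 90.0 and 64.2 CPM in the rIgG IP libraries and at 362, 355 and 338 CPM in the p-UPF1 IP libraries. Every p-UPF1 IP library was above every library of the other groups, and the mean was 3.01 times that of input. Most of the difference came from Jun, with a mean of 37.3 of the 117 CPM in input and 234 of the 352 CPM in the p-UPF1 IP. Of the 6 members tested, 5 were higher in the p-UPF1 IP than in input with an adjusted p under 0.05 (edgeR's quasi-likelihood test, Benjamini-Hochberg adjusted over all 16919 genes tested), where 26.3% of all genes were. Of the 5, Jun and Fosl2 also had a log2 fold change above 1 and are called enriched, a call that 17.2% of all genes received. None of the 6 was lower by edgeR, where 35.7% of all genes were lower. At an unadjusted p under 0.05, 0 members were lower. DESeq2 also called 0 members lower, against 5287 of the 16919 genes. The median log2 fold change was 0.81 for the 6 members and -0.42 for all genes tested, or -0.22 for the 15253 genes counted in both groups. Library totals in place of TMM moved the median of all genes by 0.41 on the log2 scale and each member by about as much. All 6 members then passed, where 33.7% of all genes were higher, and Junb and Fosb also exceeded a log2 fold change of 1. Each member is therefore also given relative to the median of all genes.

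Jun encodes the founding member of the Jun family and can form AP-1 dimers with itself or with a Fos protein. Its counts were 829, 752 and 939 in the input libraries, 10, 7 and 2 in the rIgG IP libraries, and 1371, 1617 and 1462 in those of the p-UPF1 IP, although these last have far lower totals than input. After scaling, the levels were 37.6, 35.3 and 39.1 CPM in input, 25.1, 33.2 and 16.1 CPM in the rIgG IP, and 244, 237 and 221 CPM in the p-UPF1 IP. All p-UPF1 IP libraries lay far above all others, and the lowest of them was more than 5 times the highest input library. Over input, Jun had a log2 fold change of 2.62 in the p-UPF1 IP with a standard error (SE) of 0.08, a 6.15-fold difference (adjusted p = 2.25e-09, edgeR). It was 3.04 above the median of all genes, and 3.65% of the genes tested had a larger log2 fold change.

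Junb encodes a Jun protein that is a weaker activator than Jun and often opposes it. Its levels were 14.9, 14.4 and 16.0 CPM in input, 12.6, 19.0 and 16.1 CPM in the rIgG IP, and 32.2, 29.2 and 25.7 CPM in the p-UPF1 IP. The p-UPF1 IP libraries were all higher than those of the other groups, which overlapped each other. Junb had a log2 fold change over input of 0.91 (SE 0.10, adjusted p = 2.22e-05, edgeR), or 1.33 above the median of all genes.

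Jund encodes the Jun protein that many cell types make without stimulation. Its levels were 22.8, 25.1 and 20.4 CPM in input, 22.6, 14.2 and 16.1 CPM in the rIgG IP, and 28.5, 31.5 and 25.7 CPM in the p-UPF1 IP. The p-UPF1 IP libraries did not overlap input, but the gap between the highest input library and the lowest p-UPF1 IP library was narrow. The log2 fold change of 0.30 (SE 0.10, adjusted p = 0.0280, edgeR), or 0.72 above the median of all genes, was the smallest of those that passed. Besides the stricter test against a log2 fold change of 1 and the test of transcripts, it did not pass with library totals that leave out the 10 most-counted transcripts (adjusted p = 0.0564), without a filter on low counts (0.0839), without input replicate 3 (0.0626) or without p-UPF1 IP replicate 2 (0.0887), among adjusted p-values from 0.00067 to 1 over all alternatives for Jund.

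**Figure D1:**
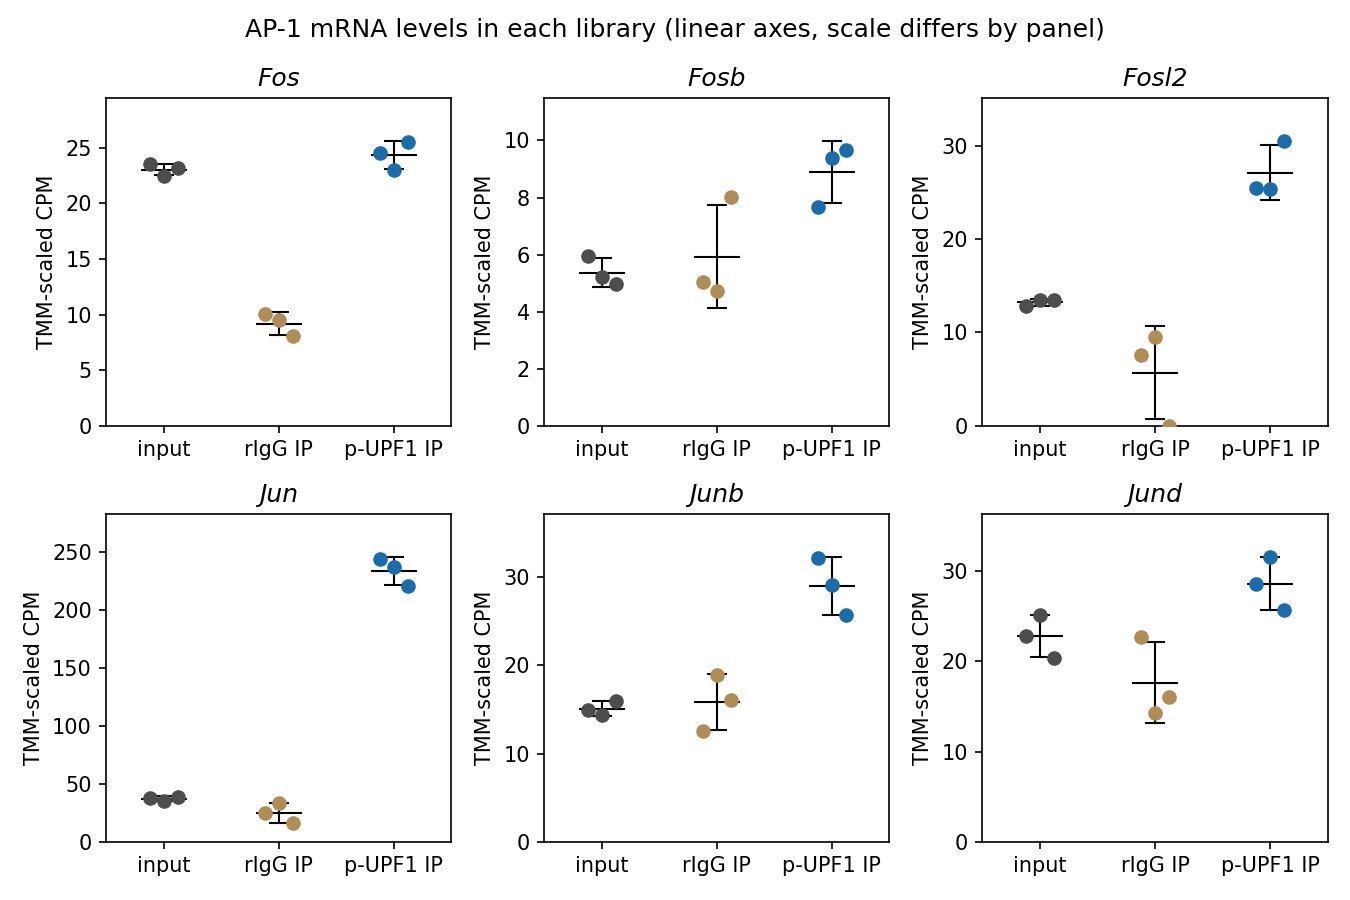
Level of each tested AP-1 mRNA in every library, in TMM-scaled CPM on linear axes that start at 0 and differ in scale by panel (points, libraries; lines and bars, mean ± SD, n = 3 per group). Jun rises from 35.3 to 39.1 CPM in input to 221 to 244 CPM in the p-UPF1 IP, while the input and p-UPF1 IP libraries of Fos overlap.

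Fos encodes the founding member of the Fos family, whose proteins do not pair with each other and bind DNA with a Jun partner. Its counts were 518, 479 and 556 in input, 4, 2 and 1 in the rIgG IP, and 138, 157 and 169 in the p-UPF1 IP. The levels were 23.5, 22.5 and 23.2 CPM in input, 10.1, 9.48 and 8.03 CPM in the rIgG IP, and 24.6, 23.0 and 25.5 CPM in the p-UPF1 IP. The p-UPF1 IP libraries overlapped input, whereas the rIgG IP libraries, with their few counts, were all lower. The log2 fold change of the p-UPF1 IP over input was 0.05 (SE 0.08, adjusted p = 0.575, edgeR), and the ratio of the pooled levels was 1.06 with an exact 95% counting interval of 0.950 to 1.17. With library totals it was 0.46 and passed (adjusted p = 0.000654, edgeR), and without a filter on low counts it was -0.03 (adjusted p = 0.831), among adjusted p-values from 0.000654 to 1 over all alternatives. It was 0.47 above the median of all genes tested and 0.27 above that of the genes counted in both groups. The median depends on the filter for low counts, being -0.11 with filterByExpr and -1.42 without a filter, and so does the place of each member relative to it.

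Fosb encodes a Fos protein and, by alternative splicing, the truncated ΔFosB. Its levels were 5.95, 5.21 and 4.96 CPM in input, 5.03, 4.74 and 8.03 CPM in the rIgG IP from 2, 1 and 1 counts, and 7.65, 9.38 and 9.67 CPM in the p-UPF1 IP. The p-UPF1 IP libraries were all above input, and rIgG IP replicate 3, with its single count, lay within their range. Fosb thus had a log2 fold change over input of 0.71 (SE 0.13, adjusted p = 0.00105, edgeR), or 1.12 above the median of all genes.

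Fosl2 encodes Fra-2, a Fos protein without the strong activation domain of Fos. Its levels were 12.8, 13.4 and 13.5 CPM in input, 7.54, 9.48 and 0 CPM in the rIgG IP from 3, 2 and 0 counts, and 25.5, 25.4 and 30.5 CPM in the p-UPF1 IP. The lowest p-UPF1 IP library was well above the highest input library. The log2 fold change over input was 1.01 (SE 0.09, adjusted p = 4.54e-06, edgeR), so that Fosl2 lay almost on the line of 1 that defines enrichment, and 1.43 above the median of all genes. The log2 fold change of Fosl2 was under that line at 0.97 with library totals that leave out the 10 most-counted transcripts and at 0.93 without a filter on low counts. It was also under it at 0.95 without p-UPF1 IP replicate 3, where Junb reached 1.03 instead. The most-counted transcript, with 97.7% of the Fosl2 counts, was at 0.76 in the test of transcripts. That test has a different centre, with Jun and Jund lower by 0.30 on the same counts, so 0.76 cannot be set against the line of 1.

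Fosl1, which encodes Fra-1, had 1 count in input replicate 1, assigned to an intron-retaining transcript, and 0 counts in the other 8 libraries. Its mRNA was not detectable at this depth beyond that fragment, 1 count being under the floor of 3, and no fold is given.

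The make-up of the family can be compared between groups without scaling the libraries, as the share of each member in the AP-1 counts of a library. Jun made up 32.0%, 30.4% and 33.4% of the AP-1 counts in input, but 67.3%, 66.7% and 65.4% in the p-UPF1 IP. Its share in the p-UPF1 IP was about 2 in 3 in every library and did not overlap input, with a difference of 34.5 percentage points between the means. In the rIgG IP it was 30.3%, 36.8% and 25.0% of 33, 19 and 8 AP-1 counts, with exact 95% intervals of 15.6 to 48.7%, 16.3 to 61.6% and 3.19 to 65.1%. The exact permutation test (two-sided, 20 arrangements) gave p = 0.10 for Jun in the p-UPF1 IP against input and against the rIgG IP, the smallest value that 3 libraries against 3 can give. Adjusted over the 7 members, these were 0.117 and 0.140, so that neither share could pass.

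The shares of the other members fell as that of Jun rose, since they add up to 100%. Fos took 19.7 ± 0.30% of the AP-1 counts in input but 6.94 ± 0.56% in the p-UPF1 IP (SD, n = 3), and Jund 19.5 ± 2.13% and 8.11 ± 0.67%. Junb went from 12.9 ± 0.65% to 8.23 ± 0.65%, Fosl2 from 11.3 ± 0.38% to 7.73 ± 1.13%, and Fosb from 4.59 ± 0.42% to 2.54 ± 0.38%. For each of these 5 the input and p-UPF1 IP libraries did not overlap (exact permutation p = 0.10 each, 0.117 adjusted over the 7 members).

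Counts set against those of Fos in the same library show how the remaining members differed from it. There were 1.60, 1.57 and 1.69 Jun counts for each Fos count in input, against 9.93, 10.3 and 8.65 in the p-UPF1 IP. For Fosl2 the ratio was 0.574 ± 0.027 in input and 1.11 ± 0.080 in the p-UPF1 IP, for Junb 0.656 ± 0.031 and 1.20 ± 0.165, and for Fosb 0.233 ± 0.019 and 0.366 ± 0.049 (SD, n = 3). None of these 4 overlapped between input and the p-UPF1 IP. In the rIgG IP, with 7 Fos counts in all, the ratios of Jun (2.67 ± 0.764), Junb (1.75 ± 0.433), Jund (1.92 ± 0.382) and Fosb (0.667 ± 0.289) were above those of input in every library, and that of Fosl2 (0.583 ± 0.520) overlapped them. The ratio of Jund to Fos, 0.989 ± 0.120 in input and 1.18 ± 0.182 in the p-UPF1 IP, did overlap.

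**Figure D2:**
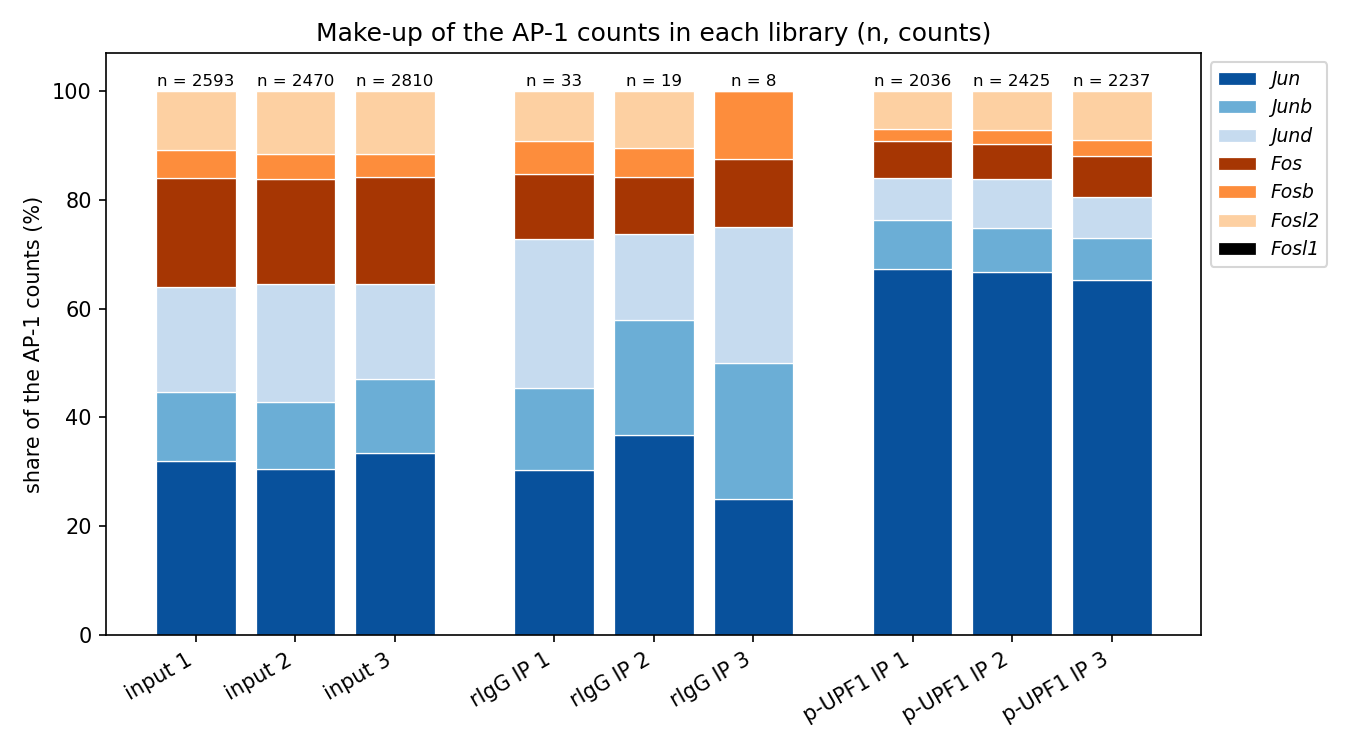
Share of each member in the AP-1 counts of every library, in percent, as stacked bars, with the number of AP-1 counts (n) above each bar. Jun takes 30.4 to 33.4% in the input libraries and 65.4 to 67.3% in the p-UPF1 IP libraries, and the rIgG IP bars rest on 8 to 33 counts.

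Levels of different genes were compared per kilobase (kb), using the length of each member's transcripts weighted by their counts. In input, Jund stood highest at 13.6 ± 1.41 CPM per kb (SD, n = 3), followed by Jun at 11.7 ± 0.61, Fos at 11.3 ± 0.26 and Junb at 8.38 ± 0.45 CPM per kb. Jund and Jun overlapped, as did Jun and Fos, whereas every Junb value was below every Fos value. Fosl2 and Fosb followed at 2.05 ± 0.06 and 1.50 ± 0.14 CPM per kb without overlap. In the p-UPF1 IP, Jun led at 73.4 ± 3.73 CPM per kb, ahead of Jund at 17.1 ± 1.75 and Junb at 16.1 ± 1.81, which overlapped. Below them came Fos at 12.0 ± 0.62, Fosl2 at 4.19 ± 0.46 and Fosb at 2.49 ± 0.30 CPM per kb, with no overlap between neighbours. In the rIgG IP the order was Jund, Junb, Jun, Fos, Fosb and Fosl2, from 10.6 ± 2.65 to 0.877 ± 0.774 CPM per kb, where Jund, Junb and Jun overlapped, as did Fosb and Fosl2, which rest on 4 and 5 counts.

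The p-UPF1 IP was next compared with the rIgG IP, which asks how relative levels differ between RNA recovered with the p-UPF1 antibody and with control IgG. The amount of RNA recovered was not measured. This comparison shares the p-UPF1 IP libraries with the one above. Of the 6 members tested, 4 were higher, where 18.5% of 12033 genes tested were, and the same 4 were enriched, a call that 18% of genes received. None was lower by edgeR, where 5.56% of all genes were. At an unadjusted p under 0.05, 0 members were lower. DESeq2 also called 0 members lower, against 967 of the 12033 genes. The median log2 fold change was 1.39 for the 6 members and 0.91 for all genes tested, of which 2324 had no count in the rIgG IP. The 9669 genes counted in both groups had a median of 0.46. Relative to the median of all genes, Fosl2 was at 1.33, Fos at 0.69, Junb at 0.28, Fosb at 0.05 and Jund at -0.08. Relative to the median of the genes counted in both groups, they were at 1.77, 1.13, 0.73, 0.49 and 0.37. Without rIgG IP replicate 1 the median of all genes was 1.60, and Junb, Jund and Fosb were under it.

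The 19 Jun counts of the rIgG IP gave a ratio of pooled levels of 9.01 for the p-UPF1 IP relative to rIgG, with a counting interval of 5.76 to 15.0. The log2 fold change of Jun was 3.42 (SE 0.28, adjusted p = 1.19e-09, edgeR), 2.52 above the median of all genes tested, of which 20.9% had a larger value. Among genes counted in both groups, it was 2.96 above the median and 1.97% had a larger value. Without rIgG IP replicate 1, Jun was at 3.35, where the median of all genes was 1.60. The value for Fosl2 was 2.23 (SE 0.51, adjusted p = 0.00203, edgeR), against 5 counts in the rIgG IP and with a pooled ratio of 3.99 (1.70 to 12.3). Jun and Fosl2 passed in each of the 15 alternatives.

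Fos had a log2 fold change of 1.59 over the rIgG IP (SE 0.44, adjusted p = 0.00992, edgeR), from 7 counts there, and a pooled ratio of 2.55 (1.23 to 6.38). This call was lost with 6 of 15 alternatives, among them without rIgG IP replicate 1 (adjusted p = 0.0835) or 2 (0.0565), with adjusted p-values from 0.0141 to 0.177 overall. Junb had a log2 fold change of 1.19 (SE 0.40, adjusted p = 0.0325, edgeR) from 11 counts, and its call was lost with 11 of 15, among them without rIgG IP replicate 1 (adjusted p = 0.281), 2 (0.0871) or 3 (0.0826) or p-UPF1 IP replicate 1 (0.0648), with adjusted p-values from 0.0237 to 0.372. Without rIgG IP replicate 1 or 2, 2 of the 6 members passed, where 11.0% and 11.8% of all genes were higher. Fosb (0.95, adjusted p = 0.290) and Jund (0.83, adjusted p = 0.107) did not pass in the test with all 6 libraries, with pooled ratios of 1.64 (0.631 to 6.11) and 1.50 (0.885 to 2.76) whose intervals include 1.

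**Figure D3:**
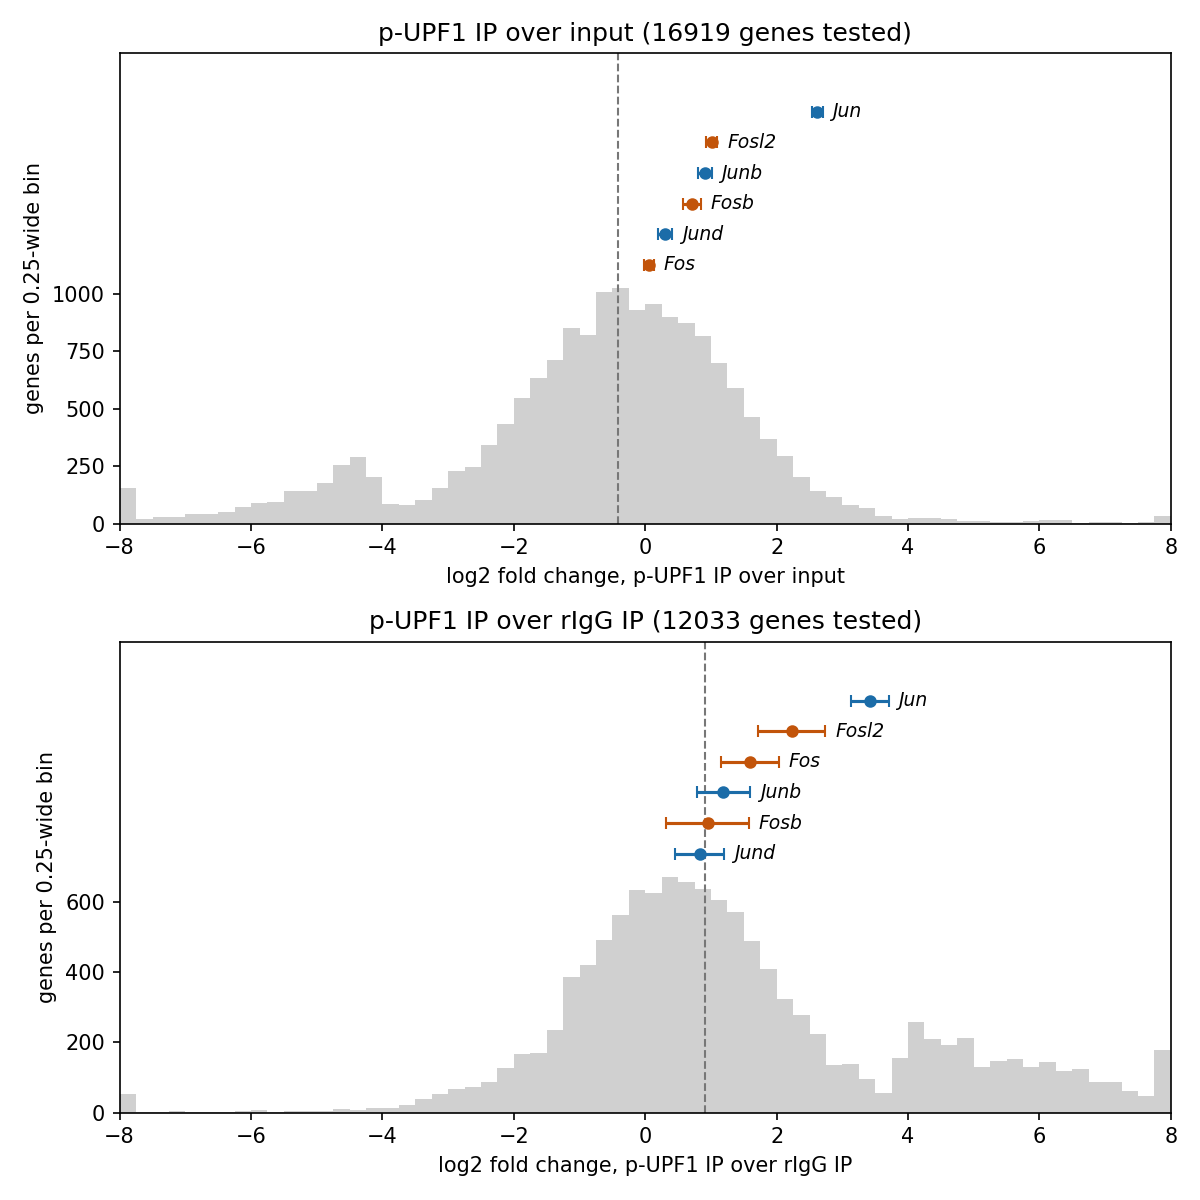
Log2 fold change of the 6 tested AP-1 members (points, with bars of 1 SE, Jun family in blue and Fos family in orange, set above the bars only for legibility) against the number of all tested genes in bins of 0.25 (grey). The dashed line is the median of all genes, the outermost bins also hold genes beyond the axis, and Jun lies farthest to the right of the members in both panels, at 2.62 and 3.42.

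The rIgG IP was set against input to show the background of the immunoprecipitation itself. None of the 6 members was higher, where 0.584% of 16280 genes tested were, and none was lower, where 0.313% were. By edgeR at an unadjusted p under 0.05, 0 members were higher and 1 was lower, with rank 543 by p among the genes tested. DESeq2 called 0 members in either direction, against 294 genes higher and 66 lower of the 16280. The member lower at an unadjusted p was Fos, with a log2 fold change of -1.27 (SE 0.37, adjusted p = 0.201, edgeR) and a pooled ratio of 0.414 (0.166 to 0.855). Fosl2 and Jun had log2 fold changes of -0.95 (SE 0.50) and -0.52 (SE 0.29), and Jund, Junb and Fosb had -0.25 (SE 0.35), -0.003 (SE 0.36) and 0.03 (SE 0.56). The signs of these last 3 depended on the scaling or on single libraries. These values rest on 4 to 19 counts of a member in the rIgG IP. In TMM-scaled CPM, every rIgG IP library was below every input library for Fos, Fosl2 and Jun. The TMM factors of the rIgG IP libraries were 0.839, 1.03 and 1.58. Scaled by library totals, the log2 fold change of Jun was -0.30. The AP-1 sum of rIgG IP replicate 3 was then above every input library (94.1 to 99.6 CPM), with replicates 1 and 2 at 69.5 and 92.6 CPM. Whether the order for Jun holds with library totals was not tested.

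The positions and structures of the genes were taken from the GENCODE M21 annotation of GRCm38. Jun lies at chr4:95049034-95052222 (minus strand), Junb at chr8:84974484-84978718 (minus strand) and Jund at chr8:70698949-70700616 (plus strand). Fos lies at chr12:85473890-85477273 (plus strand), Fosb at chr7:19302696-19310051 (minus strand), Fosl1 at chr19:5447547-5455946 (plus strand) and Fosl2 at chr5:32135801-32157842 (plus strand). The most-counted transcripts of the 3 Jun genes, Jun-201, Junb-201 and Jund-201, are single-exon mRNAs of 3189, 1809 and 1668 nt, whereas Fos-201 and Fosl2-201 have 4 exons and 2108 and 6537 nt.

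An exon junction more than 50 nt downstream of the stop codon is a classical feature of NMD targets. The coding transcript examined for each of the 7 members, the most-counted or for Fosl1 the longest, lacks it, and those of Jun, Junb and Jund have no junction at all. Among 12760 protein-coding genes tested, 68 (0.533%) had such a junction in their most-counted coding transcript. The median log2 fold change in the p-UPF1 IP over input was 0.42 for these 68 and -0.19 for the other 12692, and 33.8% and 30.1% of them were higher. Single-exon genes had a median of -1.12 over 390 genes, and of -0.96 over the 326 that are not histone genes, against -0.17 for 12370 genes with several exons. Of the 390 single-exon genes, 12 had a larger log2 fold change than Jun, as did 272 of the 12370 with several exons.

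The members differ in base composition and in the length of the 3′ UTR. GC content is 55.5% in Jun-201, 62.6% in Junb-201 and 67.1% in Jund-201, with 51.9% in Fos-201 and 53.1% in Fosl2-201, against a median of 50.5% over the protein-coding genes tested. Only 0.180% of those genes have a higher GC content than Jund and 1.50% a higher one than Junb. The 3′ UTR is 1233 nt long in Jun-201, 815 nt in Fos-201, 485 nt in Junb-201, 533 nt in Jund-201, 2139 nt in Fosb-203 and 4653 nt in Fosl2-201, against a median of 981 nt. Neither the order of GC content nor that of 3′ UTR length was that of the log2 fold changes, and their part in these was not tested.

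The AU-rich element is the sequence feature for which these mRNAs are best known, and its core, ATTTA, was searched for on the sense strand of each 3′ UTR, overlapping matches included. There were 4 matches in Jun, 4 in Fos, 8 in Fosl2, 2 in Junb and 1 each in Jund, Fosb and Fosl1, or 3.24 per kb in Jun, 4.91 in Fos, 1.72 in Fosl2, 4.12 in Junb, 1.88 in Jund, 1.57 in Fosl1 and 0.468 in Fosb, against a median of 1.17 per kb over 12350 genes with a 3′ UTR. Of 3′ UTRs within 10% of the same length, 80.4% held at least 1 match for Jun, 63.9% for Fos, 99.1% for Fosl2, 49.3% for Junb, 49.6% for Jund, 90.8% for Fosb and 57.7% for Fosl1. As many matches as in the member were found in 24.1% of such 3′ UTRs for Jun, 8.92% for Fos, 54.3% for Fosl2 and 18.3% for Junb. The stretch of 30 nt with most matches in each 3′ UTR is printed to show how the members differ around this motif, as the sense strand of the transcript, 5′ to 3′, with ATTTA in capitals.
Jun-201, nt 1031 to 1060 after the stop codon: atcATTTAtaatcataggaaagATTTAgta
Junb-201, nt 239 to 268: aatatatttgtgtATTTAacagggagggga
Jund-201, nt 275 to 304: ccgattccgccctATTTAtgtttctactcg
Fos-201, nt 642 to 671: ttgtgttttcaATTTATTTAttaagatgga
Fosb-203, nt 1486 to 1515: cccacccccagctATTTAtccctttcctgg
Fosl1-201, nt 558 to 587: aagggcagctgctATTTAttttcctaaaga
Fosl2-201, nt 3675 to 3704: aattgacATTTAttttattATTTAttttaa
Fos holds 2 matches that overlap by a base, while the 2 of Jun and of Fosl2 within such a stretch stand apart. Jun and Fos have the same number of matches, and the part of the motif in the fold changes was not tested.

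Fragments this short can fit several transcripts, so each member was checked for shared sequence. No 35-nt window of Jun-201, Junb-201, Jund-201, Fos-201 or Fosl2-201 occurs in a transcript of another gene on the same strand. Whether counting used the strand is not given in the sources used here, and genes on the opposite strand overlap several members. Junos overlaps Jun by 689 nt and had 6, 17 and 4 counts in input against 1, 1 and 0 in the p-UPF1 IP, few beside those of Jun. Gm11175 overlaps Jund by 919 nt, with 49.7% of the windows of Jund-201 antisense to it, and had 44, 0 and 26 counts in input but 0 in each p-UPF1 IP library. Prdx2, with 928, 844 and 1022 counts in input, overlaps Junb by 351 nt, but only at Junb-202, which had 6 counts in all. Ccdc85b, with 26, 28 and 26 counts in input, overlaps Fosl1 by 2767 nt. If counting did not use the strand, reads of Jund and of Gm11175 in the shared stretch cannot be told apart.

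Transcripts of Fos and Fosb were examined after their counts had been seen, and the split rests on how Salmon assigned fragments that several transcripts share. In Fos, transcripts annotated as non-coding (processed transcripts) took 5 of 518, 8 of 479 and 5 of 556 counts in input, against 27 of 138, 26 of 157 and 33 of 169 in the p-UPF1 IP. That is 1.16% of the pooled Fos counts in input (exact 95% interval 0.688 to 1.83%) and 18.5% in the p-UPF1 IP (15.1 to 22.4%), with no overlap between the libraries of these groups. In the rIgG IP such transcripts took 3 of 7 Fos counts, or 42.9% (9.90 to 81.6%), so that a difference between the p-UPF1 IP and the control is not shown. The split between single non-coding transcripts was unsteady, with 27, 17 and 0 counts for Fos-202 and 0, 9 and 33 for Fos-203 in the p-UPF1 IP, and no window of 35 nt is found in Fos-202 alone. The coding transcript Fos-201 had a log2 fold change of -0.53 (SE 0.09, adjusted p = 0.00985, edgeR), where the median of all 42616 transcripts tested was -0.95. The tests of genes and of transcripts have different centres: Jun and Jund, which have a single transcript each and thus the same counts in both tests, were lower by 0.30 in the test of transcripts (2.32 and 0.0007 against 2.62 and 0.30).

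In Fosb, the intron-retaining transcript Fosb-204 took 36 of 131, 31 of 111 and 31 of 119 counts in input, but only 5 of 43, 6 of 64 and 8 of 64 in the p-UPF1 IP. Its pooled share was 27.1% in input (22.6 to 32.0%) and 11.1% in the p-UPF1 IP (6.82 to 16.8%), with 2 of 4 counts in the rIgG IP. The coding transcripts of Fosb share nearly all their sequence, and their counts moved between replicates in a way that the totals did not: Fosb-203 had 89, 61 and 0 counts in input, and Fosb-205 had 0, 19 and 82. Fosb-201 had 6, 0 and 6 counts in input but 38, 49 and 50 in the p-UPF1 IP (log2 fold change 4.96, SE 1.04, adjusted p = 0.0203, edgeR). As 0.267% of its 35-nt windows are its own, how far this reflects the assignment of shared fragments was not tested. Fosb-206, whose reading frame of 237 codons has the length of ΔFosB, was at 0 in all of input and had 0, 9 and 6 counts in the p-UPF1 IP and 1 count in the rIgG IP, and none of its 35-nt windows is its own.

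Genes that work with AP-1 were taken from lists drawn up by function with earlier results known, and 3 genes were taken out of the lists after the values were seen. Their counts stand beside 26.3% of all genes higher and 35.7% lower over input, and 18.5% higher and 5.56% lower over the rIgG IP. With library totals, 5709 of the 16919 genes were higher than in input (33.7%) and 4363 lower. Of 26 partner genes of the bZIP class, whose proteins pair with Jun or Fos or bind related sites, 21 were tested, 12 were higher in the p-UPF1 IP than in input and 6 lower, with a median log2 fold change of 0.47. Mafk, a small Maf protein gene, rose by 2.99 (SE 0.09) from 5.99 to 48.4 CPM, and Atf3, a stress-induced partner of Jun, by 2.00 (SE 0.07) from 36.9 to 151 CPM. Nfe2l2, which encodes the oxidative stress regulator Nrf2, was lower, with a log2 fold change of -2.74 (SE 0.32). This rests on 1, 6 and 6 counts in the p-UPF1 IP against 97, 94 and 112 in input. Over the rIgG IP, Nfe2l2 did not pass (-2.69, adjusted p = 0.0713, edgeR). Mafa, at 2.25 (SE 0.83, adjusted p = 0.0374, edgeR), had 6 counts in input, was at 3.13 without input replicate 1 and lost its call with 8 alternatives, among them without input replicate 2 (adjusted p = 0.0807) or 3 (0.0898), or without replicate 2 (0.109) or 3 (0.111) of the p-UPF1 IP, with adjusted p-values from 0.0180 to 0.117. Against the rIgG IP, 8 of 20 partner genes were higher. With library totals 14 were higher than in input and 3 lower.

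Kinases of the MAP kinase pathways moved in both directions. The 25 tested included MAP kinases, their kinases and 4 Rps6ka kinases that act downstream of MAP kinases. Of these 25, 10 were higher in the p-UPF1 IP than in input, where 26.3% of all genes were, and 5 lower, where 35.7% were. The median log2 fold change was 0.24, and library totals gave 17 higher, where 33.7% of all genes were. Over the rIgG IP, 4 of 24 were higher, where 18.5% of all genes were. Mapk7 (2.12, SE 0.11), Map3k11 (1.99, SE 0.14), Map2k7 (1.80, SE 0.08), which encodes a kinase of the kinases that phosphorylate Jun, and Mapk11 (1.55, SE 0.15) had the largest log2 fold changes over input. Over the rIgG IP, Mapk7, Map3k11 and Map2k7 passed too (2.77, 3.21 and 1.86), but Mapk11 did not (1.12, adjusted p = 0.179, edgeR). Of 17 tested transcription factors that act on the promoters of Fos and Jun, 5 were higher and 7 lower, with a median of -0.03. Of all genes, 26.3% were higher and 35.7% lower. With library totals 9 of the 17 were higher and 4 lower. Beside 18.5% of all genes, 3 of 17 were higher than in the rIgG IP. Ets2 (2.18, SE 0.08), the Srf cofactor genes Mrtfa (2.15, SE 0.13) and Mrtfb (1.66, SE 0.12), and Srf itself (1.40, SE 0.11) were higher than in input. Over the rIgG IP, Ets2, Mrtfa and Mrtfb passed too (2.21, 2.31 and 2.51). Srf did not pass there (0.91, adjusted p = 0.154, edgeR), where the median of all genes was 0.91.

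Genes of the factors that bind AU-rich elements or shorten poly(A) tails were mostly lower in the p-UPF1 IP than in input. Of 19 tested, 14 were lower, where 35.7% of all genes were, and 2 higher, with a median log2 fold change of -0.86, and with library totals 10 were lower and 5 higher. Against the rIgG IP, 3 of the 19 were higher and 3 lower. Relative to input, Tob1, which recruits deadenylases, fell by 2.90 (SE 0.15) on the log2 scale, the deadenylase gene Cnot7 by 2.16 (SE 0.11), Elavl1, which encodes the stabilizing protein HuR, by 2.07 (SE 0.10) and Pum2 by 2.01 (SE 0.09). Over the rIgG IP, Tob1 (-1.96) and Elavl1 (-1.31) were lower too. Pum2 (-0.92, adjusted p = 0.0557, edgeR) and Cnot7 (0.14, adjusted p = 0.902) did not pass there. Of 7 ubiquitin ligase and turnover factors of Jun and Fos proteins, Itch and Dcaf1 were lower, with log2 fold changes of -0.51 and -0.50, and the other 5 did not pass, with a median of 0.13 for all 7. With library totals these 2 calls were lost and 4 others of the 7 were higher. Over the rIgG IP, 0 of the 7 were higher and 0 lower, where 18.5% and 5.56% of all genes were.

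Other immediate early genes were compared with AP-1 in the same libraries. Of 25 symbols, 24 were present and 23 tested. Of these 23, 13 were higher in the p-UPF1 IP than in input and 3 lower, where 26.3% and 35.7% of all genes were. The median log2 fold change was 0.79, beside 0.81 for the AP-1 members. Library totals gave 16 higher, where 33.7% of all genes were. Ier2 rose by 4.19 (SE 0.08) from 12.3 to 228 CPM, and Gadd45b, Arc and Ier5 rose by 3.89 (SE 0.14), 3.48 (SE 0.11) and 3.05 (SE 0.11). Over the rIgG IP, 10 of 21 were higher, where 18.5% of all genes were. Whether the AP-1 members differ from this list was not tested.

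The genes whose pattern over the 9 libraries was most like that of Jun were found by the root mean square difference of centred log2(CPM + 1) among 9638 genes with a mean count of at least 20. They were Gosr2 (0.186), Nop56 (0.202), Brd2 (0.226), Id3 (0.243) and 1110002L01Rik (0.295), with log2 fold changes over input of 2.42, 2.69, 2.64, 2.96 and 3.42. Those most like Fos were Atad2 (0.128), Mak16 (0.153), Ktn1 (0.160), Uggt1 (0.167) and Tnpo1 (0.187), with log2 fold changes from -0.26 to 0.34. None of the other AP-1 members was among either group of 5.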

How the data were processed

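RIP-seq of N2A cells was analysed in 3 input, 3 rIgG IP and 3 p-UPF1 IP libraries, grouped by their labels. The authors trimmed reads, mapped them with STAR 2.7.0f to GRCm38.p6, quantified transcripts with Salmon 0.13.1 and deposited an estimated count per transcript, given in whole numbers without any scaling; the rounding step is not given in the sources used here. Here, counts were summed per gene symbol. Groups were compared in pairs, on the 6 libraries concerned, with edgeR 4.0.16 (R 4.3.3; TMM, quasi-likelihood test), for symbols with a summed count of at least 10, with Benjamini-Hochberg adjustment over all genes tested. Higher and lower mean an adjusted p under 0.05, and enriched in addition a log2 fold change above 1. Standard errors follow from the log2 fold change divided by the root of F. CPM used TMM factors of all 9 libraries. Shares of the AP-1 counts were compared by exact permutation tests, with Clopper-Pearson 95% intervals; ratios of pooled counts have exact conditional intervals. Of the transcripts, 139921 matched GENCODE M21 (the mapping by the authors used M22 of that build), which gave coordinates and sequences. The procedure was tested on simulated data.

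The members and lists were chosen with earlier results of these data known, and 3 genes were taken out of the lists after the values were seen. The genes named are the 7 members, in each list the 4 with the largest absolute log2 fold change among those past the threshold for the p-UPF1 IP against input, and the 5 genes most like Jun or Fos, besides markers at the highest level or at 0 and genes that overlap a member. The alternatives were filterByExpr or no filter on low counts, RLE factors or library totals with and without the 10 most-counted transcripts, DESeq2 1.42.0, one fit of all 9 libraries, a replicate block, glmTreat against a log2 fold change of 1, the most-counted transcript, and leaving out each library in turn. Running them on the other lists, the ratios to Fos, and the transcript shares of Fos and Fosb were chosen after seeing the data. RNA-seq upon knockdown of UPF1 is not analysed here.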

Additional observations from a re-analysis of the deposited data

How the results depend on the processing

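In the p-UPF1 IP over input, the number of members higher (5) lay between 4 and 6 with the alternatives for which it was counted, except glmTreat against a log2 fold change of 1, which asks for a larger change and called 1 (Jun), and between 4 and 5 with single libraries left out. Over the rIgG IP, the number (4) was 2 with DESeq2, filterByExpr, glmTreat and the replicate block, and between 2 and 4 with single libraries left out. The difference in the share of Jun was between 33.8 and 35.2 percentage points against input, and between 32.9 and 38.8 against the rIgG IP, with single libraries left out. The log2 fold change of Fos over input turned to -0.025 without a filter and to -0.53 for its most-counted transcript (adjusted p = 0.00985), and that of Fosb to -8.13 for Fosb-203, which has no count in the p-UPF1 IP, so that the value has no firm bound. Of the most-counted transcripts, those of Jun, Fosl2 and Junb passed as higher and that of Jund did not. The test of transcripts has a different centre: Jun and Jund, with the same counts in both tests, were lower by 0.30 there. In the rIgG IP over input, the sign of Fosb turned with library totals without the 10 most-counted transcripts (-0.013), without a filter (-0.0031) and with single libraries left out (-0.15 to 0.18). There, Junb turned positive with DESeq2 (0.28), RLE factors (0.28), library totals (0.22), filterByExpr (0.055), the replicate block (0.034) and single libraries left out (-0.16 to 0.25), and Jund with DESeq2 (0.033) and RLE factors (0.031). The difference in the share of Fosl2 between the p-UPF1 IP and the rIgG IP ranged from -2.08 to 3.18 points with single libraries left out. Single genes kept direction and side of the threshold in 639 cases of a gene under an alternative, lost the threshold in 38, passed it anew in 1 and reversed in 17. Among the reversed cases, the most-counted transcript of Fos also passed the threshold anew (adjusted p = 0.00985, edgeR), and that of Fosb lost it (0.156). The cause of these changes was not tested. Deviations of libraries with the same number were not correlated (r from -0.02 to 0.05 across 9639 genes), and the replicate block changed no member's call over input. Of all genes over input, 4445 were higher and 6044 lower, against 2101 and 3024 with glmTreat; library totals moved the median by 0.41 and the share of higher calls from 42.4% to 56.7%. Over the rIgG IP, 2222 genes were higher, against 1214 with DESeq2, 1480 with filterByExpr, 1425 with the block, 954 with glmTreat and 1312 and 1415 without rIgG IP replicates 1 and 2, and 669 were lower, against 428 with the block, 389 with glmTreat and 311 without rIgG IP replicate 1. The share of higher calls there was 76.9%, against 55.7% with DESeq2, 64.1% with RLE factors and 65.5% with totals without the 10 most-counted transcripts, which moved the median by -0.66, -0.29 and -0.27. In the rIgG IP over input, 95 genes were higher, against 294 with DESeq2, 266 without a filter, 63 with glmTreat and 183 without input replicate 2, and 51 were lower, against 28 with RLE factors, 103 with totals without the 10 most-counted transcripts, 168 with filterByExpr, 295 without a filter, 108 with all 9 libraries, 11 with glmTreat, 134 without input replicate 2 and 25 without rIgG IP replicate 2. The share of higher calls was 65.1%, against 81.7% with DESeq2, 81.6% by RLE, 75.8% with library totals and 50.2% with totals without the 10 most-counted transcripts; the medians moved by 1.09, 0.28, 0.22 and -0.04. It was 41.9% with filterByExpr, 47.4% without a filter and 49.5% with all 9 libraries, and without rIgG IP replicate 1 the median moved by -3.25. The few counts of the rIgG IP limit every statement about it.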
